A study of Mus musculus with 32 samples.

Results

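The small intestine of 10-week-old male mice without Fabp6 was compared with that of male mice that kept the gene. The study profiled male and female mice of 4 genotypes, namely Fabp6-/-, Fabp2-/-;Fabp6-/-, Fabp2-/- and WT, on the Affymetrix arrays 430A and 430B, with 16 RNA pools on 32 arrays. The pools were chosen here by sex and genotype alone, which took 8 of the 16. The 4 Fabp6-null pools were Fabp6-/- replicates 1 and 2 and Fabp2-/-;Fabp6-/- replicates 1 and 2, and the 4 Fabp6-intact pools were WT replicates 1 and 2 and Fabp2-/- replicates 1 and 2. Fabp2 was therefore disrupted in 2 of the 4 pools on each side, and Fabp2 status was a covariate of the fit.

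Each pool held RNA of 2 mice. The WT mice were C57BL/6J, the disrupted lines were kept on that background, and the double line was made by crossing the single ones. Both disruptions were carried in the germline, so the comparison does not separate the loss of the gene in ileal enterocytes from its loss elsewhere. The organ was taken whole, from the base of the stomach to just before the cecum, from fasted mice on a standard diet, and the time of day of sampling was not given in the sources used here. In RNA from a whole organ, fewer cells of a type and less RNA per cell cannot be told apart. With 4 pools on each side, the number of arrays limits the precision, and the p-values rest on the spread between pools. In the comparison of 4 with 4 pools, that spread also holds any difference of the Fabp6 effect between the Fabp2 backgrounds.

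Fabp6 is the ileal bile acid-binding protein, a small cytosolic carrier of the enterocytes at the distal end of the small intestine, where bile acids are reclaimed. Bile acids enter these cells through the sodium-dependent transporter Slc10a2, leave through the transporter made of Slc51a and Slc51b, and activate the nuclear receptor FXR (Nr1h4). FXR raises transcription of Fabp6, of the hormone Fgf15, of both Slc51 genes and of the corepressor Nr0b2, so that the gene disrupted here is itself a target of the bile acid sensor.

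The start of Fabp6 is shown because the gene is both the disrupted locus and a known FXR target. FXR binds inverted repeats of a hexamer with a 1-base spacer (IR-1), and capitals mark IR-1 matches with at most 2 mismatches on either strand. The promoter is that of RefSeq on GRCm38.p6, chr11:43601513-43601812, minus strand, from 250 bases before to 50 bases after the start.
Fabp6: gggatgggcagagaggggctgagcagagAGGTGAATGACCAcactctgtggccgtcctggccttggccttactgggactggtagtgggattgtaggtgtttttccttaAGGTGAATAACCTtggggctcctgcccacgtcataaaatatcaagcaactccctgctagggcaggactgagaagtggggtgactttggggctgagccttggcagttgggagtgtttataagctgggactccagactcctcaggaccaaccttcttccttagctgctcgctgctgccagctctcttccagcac
The window held 2 matches, and such a match was found in 1.14% of the 32851 promoters of the table. Of the 81 genes called below, 59 had a promoter in the table, and of these Cubn was the only other one with a match. A match is a stretch of letters and was not tested as a binding site.

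Values are log2 signals made by robust multichip average (RMA), so that a difference of 1 is a 2-fold change, and the signals of different genes are not compared. Fabp6 checked the labels. Its log2 signal was 4.91 and 4.88 in the Fabp6-/- pools and 4.98 and 4.91 in the Fabp2-/-;Fabp6-/- pools, against 11.17 and 11.07 in the WT pools and 11.07 and 11.32 in the Fabp2-/- pools. The 4 Fabp6-null pools were nearly equal and far below the 4 intact pools. The log2 difference was -6.24 (SE 0.07), a 75.4-fold lower signal, and it was -6.22 without and -6.25 with the Fabp2 disruption. Fabp2 marked the other genotype, with 8.98 and 9.98 in the Fabp2-/-;Fabp6-/- pools and 9.20 and 9.45 in the Fabp2-/- pools, and with 12.79 and 12.91 in the Fabp6-/- pools and 12.97 and 13.05 in the WT pools. The disrupted pools kept a Fabp2 signal above the median of the array. Median signals of the 8 pools spanned 6.57 to 6.62 on 430A and 5.89 to 5.91 on 430B, and the replicates of a genotype correlated at 0.996 to 0.997. The 3' minus 5' log2 signal of the Actb control probe sets, a sign of RNA integrity, did not overlap on 430B, at 0.170 to 0.198 in Fabp6-null pools and 0.0588 to 0.118 in intact pools. On 430A it overlapped (-0.180 to -0.0752 and -0.205 to -0.138), as did that of Gapdh on both chips. Its part in the differences below, many of which rest on 1 probe set of a gene, was not tested.

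Apart from Fabp6, few genes of the bile acid route passed the test. Of 19 measured genes of bile acid transport and FXR signalling, Fabp6 fell, Cyp27a1 rose and 17 were not called, and the median log2 difference of the list was -0.00, against -0.01 over all 18195 genes. A gene was called at a false discovery rate (FDR, the Benjamini-Hochberg adjusted p of limma) under 0.2 with a log2 difference over 0.5 in size. By this rule 81 genes, or 0.445% of those tested, were called, 43 higher (0.236%) and 38 lower (0.209%) without Fabp6. The count was 51 without Fabp2-/-;Fabp6-/- replicate 1. At an unadjusted p under 0.05 there were 7 of the 19 bile acid genes and 2918 of all 18195. The pools of the groups did not overlap in 3 of the 19, namely Fabp6, Nr0b2 and Slc27a5, and in 7.99% of all genes.

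The uptake transporter Slc10a2 had log2 signals of 5.15 and 5.25 in Fabp6-/- pools and 4.61 and 4.96 in Fabp2-/-;Fabp6-/- pools, against 4.90 and 5.39 in WT pools and 4.62 and 4.62 in Fabp2-/- pools. The groups overlapped, with a difference of 0.10 (SE 0.11). Each of these Slc10a2 signals was below the array median, where a change is harder to read, so the missing call says little. The export subunits had differences of -0.00 (Slc51a, SE 0.07) and -0.23 (Slc51b, SE 0.09), FXR itself one of 0.12 (Nr1h4, SE 0.07), and Nr0b2 one of 0.17 (SE 0.05, adjusted p = 0.16). Fgf15, the ileal hormone that holds back hepatic bile acid synthesis, had 5.76 and 5.34 in Fabp6-/- pools and 5.66 and 5.58 in Fabp2-/-;Fabp6-/- pools, against 5.84 and 5.55 in WT pools and 6.03 and 6.43 in Fabp2-/- pools. The 2 Fabp2-/- pools were the highest, and the overall difference of -0.38 (SE 0.13) missed the threshold (adjusted p = 0.203). Over Fabp2-/- alone, the difference was -0.61 (adjusted p = 0.059) and was called. Cyp27a1, the mitochondrial sterol 27-hydroxylase, had 9.01 and 9.28 in Fabp6-/- pools and 9.73 and 9.37 in Fabp2-/-;Fabp6-/- pools, against 8.79 and 8.86 in WT pools and 8.47 and 9.05 in Fabp2-/- pools. The 2 groups overlapped in 1 pool on each side, and the difference was 0.55 (SE 0.14, adjusted p = 0.099). A second probe set of the gene gave 0.05, at a low mean log2 signal of 2.46 against 9.07 for the tested one.

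Among 16 measured fatty acid-binding and related carrier proteins, Fabp6 and Rbp2 fell, Scp2 rose and 13 were not called, with a median of -0.08. Rbp2, the retinol carrier of the enterocyte, had 12.10 and 12.10 in Fabp6-/- pools and 12.28 and 12.29 in Fabp2-/-;Fabp6-/- pools, against 12.71 and 12.77 in WT pools and 12.86 and 12.66 in Fabp2-/- pools. All 4 Fabp6-null pools lay below all 4 intact pools (log2 difference -0.56, SE 0.06, adjusted p = 0.0036). Rbp2 was the only called gene among 25 measured genes of retinoid metabolism. Fabp1, a carrier found along the whole small intestine, had 12.47 and 12.56 in Fabp6-/- pools and 12.56 and 12.70 in Fabp2-/-;Fabp6-/- pools, against 12.71 and 12.72 in WT pools and 12.83 and 12.66 in Fabp2-/- pools. Its difference of -0.16 (SE 0.06, adjusted p = 0.27) was not called. Scp2, a sterol carrier of peroxisomes, gave 0.62 on the tested probe set and -0.06 to 0.10 on its other 3.

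In 52 of the 81 called genes the 4 Fabp6-null pools lay entirely above (25 genes) or below (27 genes) the 4 intact pools, while 1453 of all genes, or 7.99%, had pools that did not overlap in this way. Of the called genes, 11 changed more than 2-fold, 7 of them higher (Gkn1, Rps4l, Gkn2, Anxa10, Sptssb, Ces1d and Tff1) and 4 lower (Fabp6, Nr1d1, Ceacam10 and H2-Aa). The plot of the largest rises and falls gives the pools of 12 such genes. Gpr155, which differed by 0.62, was also among the 12 largest rises with pools that did not overlap.

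**Figure D1:**
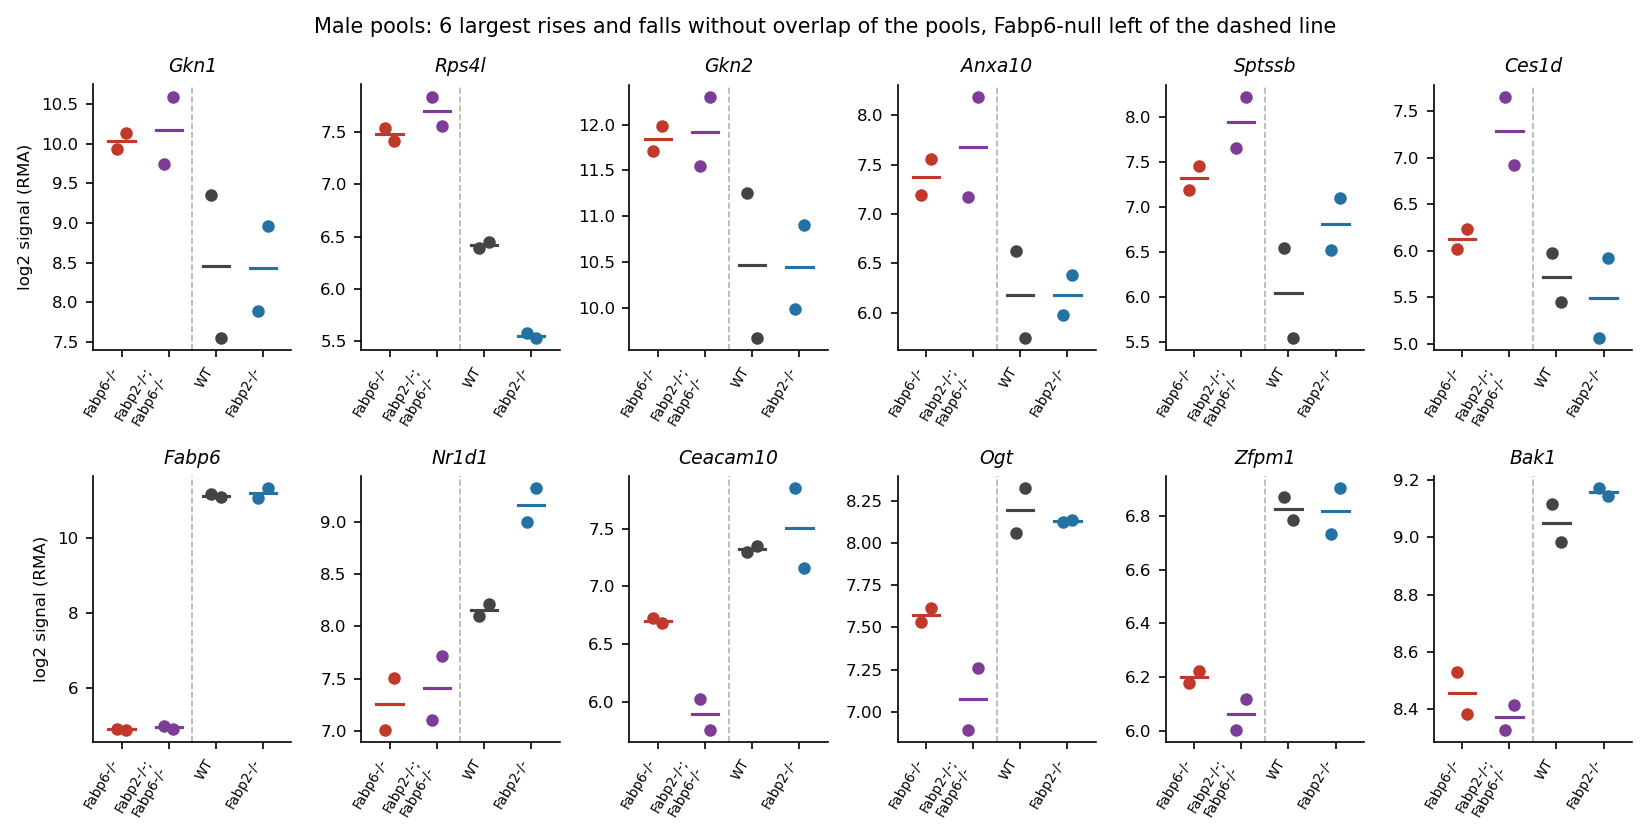
Log2 RMA signal of each male pool (points) and the mean of each genotype (bars) for the 6 largest rises and the 6 largest falls among called genes whose pools did not overlap, with the Fabp6-null genotypes left of the dashed line in each panel. Gkn1, Gkn2 and Anxa10 show 1 WT pool and 1 Fabp2-/- pool close to the Fabp6-null ones, whereas Fabp6, Zfpm1 and Bak1 show tight pools on both sides.

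The largest group among the rises belonged to the surface epithelium of the stomach. Of 20 measured markers of gastric epithelium, 7 rose (Gkn1, Gkn2, Anxa10, Tff1, Muc5ac, Psca and Cldn18), 1 fell (Ctse) and 12 were not called, with a list median of 0.07. Gkn1, a gastrokine secreted by surface mucous cells, had 9.94 and 10.13 in Fabp6-/- pools and 9.75 and 10.60 in Fabp2-/-;Fabp6-/- pools, against 9.36 and 7.55 in WT pools and 7.89 and 8.96 in Fabp2-/- pools. The intact pools were widely spread, and WT replicate 1 came nearest to the Fabp6-null pools. The difference was 1.67 (SE 0.35, adjusted p = 0.056), a 3.17-fold higher signal, and a second probe set gave 1.57. Its partner gene Gkn2 had 11.71 and 11.98 in Fabp6-/- pools and 11.54 and 12.31 in Fabp2-/-;Fabp6-/- pools, against 11.26 and 9.67 in WT pools and 9.99 and 10.91 in Fabp2-/- pools. The order of the intact pools was the same as for Gkn1, and the difference was 1.43 (SE 0.31, adjusted p = 0.062).

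Anxa10, an annexin found in gastric mucosa, had 7.20 and 7.56 in Fabp6-/- pools and 7.17 and 8.19 in Fabp2-/-;Fabp6-/- pools, against 6.62 and 5.74 in WT pools and 5.98 and 6.39 in Fabp2-/- pools, a difference of 1.34 (SE 0.23). The pools did not overlap, and WT replicate 1 was again the highest of the intact ones. The gastric gel mucin Muc5ac had 7.58 and 7.91 in Fabp6-/- pools and 7.27 and 7.83 in Fabp2-/-;Fabp6-/- pools, against 6.90 and 6.53 in WT pools and 6.52 and 7.10 in Fabp2-/- pools, a difference of 0.88 (SE 0.16). For Tff1, the trefoil peptide of gastric surface cells, the signals were 11.98 and 12.18 in Fabp6-/- pools and 11.66 and 12.42 in Fabp2-/-;Fabp6-/- pools, against 11.70 and 10.42 in WT pools and 10.78 and 11.27 in Fabp2-/- pools. Here WT replicate 1 lay above 1 of the Fabp6-null pools, so the groups overlapped, and the difference was 1.02 (SE 0.25). Psca, a surface antigen of the gastric epithelium, differed by 0.69 (SE 0.13) and Cldn18, the tight junction claudin of the stomach, by 0.51 (SE 0.12).

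The other 12 genes of the list were not called. Among them, differences of the proton pump subunits Atp4a and Atp4b, of intrinsic factor (Cblif), of pepsinogen C (Pgc), of gastric lipase (Lipf), and of Tff2 and Gkn3 ran from -0.07 to 0.08, and those of Sult1c2 and Vsig1 were 0.23 and 0.19. In all, 10 of the 20 had an unadjusted p under 0.05. The mean linear signal of the whole list, taken as log2, was 9.30 to 9.83 in the Fabp6-null pools and 8.26 to 9.18 in the intact pools. Such a mean, here and below, is set mostly by the strongest signals, so it does not describe the 12 genes not called. How much tissue next to the stomach each pool held was not tested. The rise was found in both Fabp2 backgrounds, with 6 of the 20 genes called higher in each. The interaction with Fabp2 was called for 0 of the 20 by limma, with 1 at an unadjusted p under 0.05. Ctse, cathepsin E, went the other way on the tested probe set (-0.78, SE 0.21, overlapping pools), while its second probe set gave 0.60. Omission of Fabp6-/- replicate 2 left 5 of the rises called, and no pool left fewer. With an intensity trend and robust prior in the fit, 4 of the rises were called.

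Other mucosal genes rose with them. Sptssb, a small subunit of serine palmitoyltransferase that starts sphingolipid synthesis, had 7.20 and 7.46 in Fabp6-/- pools and 7.66 and 8.23 in Fabp2-/-;Fabp6-/- pools, against 6.55 and 5.54 in WT pools and 6.53 and 7.11 in Fabp2-/- pools. The 8 pools did not overlap, although Fabp2-/- replicate 2 came close to the lowest Fabp6-null pool. The difference was 1.20 (SE 0.21, adjusted p = 0.030), while a second probe set gave 0.34. Mal, a proteolipid of apical sorting, differed by 0.75 (SE 0.11), the membrane mucin Muc3 by 0.56 (SE 0.12), and Cdx2, the transcription factor of intestinal identity, by 0.51 (SE 0.11), each with pools that did not overlap. Second probe sets gave 0.18 for Mal and 0.29 for Cdx2. Muc3 was the only called gene of 22 measured goblet cell genes and Cdx2 the only one of 14 enterocyte genes.

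Rps4l, a gene closely related to that of the ribosomal protein S4, rose too. It had 7.54 and 7.42 in Fabp6-/- pools and 7.84 and 7.56 in Fabp2-/-;Fabp6-/- pools, against 6.40 and 6.45 in WT pools and 5.58 and 5.53 in Fabp2-/- pools. The signals fell in 3 tight levels, with both Fabp6-null genotypes highest, WT between and Fabp2-/- lowest. The overall difference was 1.60 (SE 0.18, adjusted p = 0.0035), and it was 2.15 with and 1.06 without the Fabp2 disruption, a difference between backgrounds that was itself called (1.09, adjusted p = 0.0050). Of 20 measured ribosomal protein genes 0 were called by limma, with 1 at an unadjusted p under 0.05.

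Among the falls, Ceacam10, a secreted carcinoembryonic antigen-related protein, had 6.72 and 6.68 in Fabp6-/- pools and 6.03 and 5.76 in Fabp2-/-;Fabp6-/- pools, against 7.29 and 7.35 in WT pools and 7.85 and 7.16 in Fabp2-/- pools. The double-disrupted pools were the lowest and the groups did not overlap. The difference was -1.11 (SE 0.19, adjusted p = 0.031). Bak1, a pore-forming effector of apoptosis, had 8.53 and 8.38 in Fabp6-/- pools and 8.33 and 8.41 in Fabp2-/-;Fabp6-/- pools, against 9.12 and 8.98 in WT pools and 9.17 and 9.14 in Fabp2-/- pools, a difference of -0.69 (SE 0.07, adjusted p = 0.0014). A second probe set of Bak1 gave -0.25. Cybb, the phagocyte NADPH oxidase subunit, differed by -0.65 (SE 0.12) and was highest in Fabp2-/- replicate 1 (7.85). Tkfc, which phosphorylates glyceraldehyde in fructose breakdown, differed by -0.54 (SE 0.07), Gpa33, a surface antigen of intestinal epithelium, by -0.57 (SE 0.06), and Pglyrp1, a peptidoglycan-binding protein of innate defence, by -0.57 (SE 0.07). The Gpa33 and Pglyrp1 genes were picked after their values were seen.

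Circadian genes made up a further group, whose members moved in opposite directions. Of 20 measured clock and clock output genes, Npas2, Arntl and Nfil3 rose, Nr1d1 and Dbp fell and 15 were not called, with a list median of 0.03. With the probe set of highest mean signal 2 rose and 1 fell, without the Fabp2 covariate 1 rose and 1 fell, and with an intensity trend and robust prior 1 fell. In the clock, Arntl with Clock or Npas2 activates genes with E-boxes, among them Nr1d1, Dbp and the Per genes, and the repressor encoded by Nr1d1 (REV-ERBα) holds down Arntl, Npas2 and Nfil3 through ROR elements (RORE).

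Nr1d1 had 7.01 and 7.50 in Fabp6-/- pools and 7.11 and 7.72 in Fabp2-/-;Fabp6-/- pools, against 8.10 and 8.22 in WT pools and 9.0 and 9.32 in Fabp2-/- pools. All Fabp6-null pools were below all intact pools, and the Fabp2-/- pools were the highest. The difference was -1.33 (SE 0.19, adjusted p = 0.013), a 2.51-fold lower signal, and ran from -1.51 to -1.12 when each pool was left out in turn. Dbp, a transcription factor of clock output, had 6.21 and 6.41 in Fabp6-/- pools and 6.25 and 7.82 in Fabp2-/-;Fabp6-/- pools, against 7.74 and 7.61 in WT pools and 7.15 and 7.80 in Fabp2-/- pools. Fabp2-/-;Fabp6-/- replicate 2 was the highest of all 8 pools and the other 3 Fabp6-null pools the lowest. The difference was -0.90 (SE 0.30, adjusted p = 0.19).

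Arntl, the partner shared by Clock and Npas2, had 6.90 and 6.74 in Fabp6-/- pools and 6.65 and 6.03 in Fabp2-/-;Fabp6-/- pools, against 5.93 and 5.96 in WT pools and 6.13 and 6.21 in Fabp2-/- pools, a difference of 0.52 (SE 0.15). Npas2 had 6.72 and 6.44 in Fabp6-/- pools and 6.12 and 5.80 in Fabp2-/-;Fabp6-/- pools, against 5.58 and 5.57 in WT pools and 5.89 and 5.76 in Fabp2-/- pools, a difference of 0.57 (SE 0.16), while its second probe set gave 0.03. Nfil3, a repressor that opposes Dbp at D-boxes, had 6.82 and 6.66 in Fabp6-/- pools and 6.70 and 5.66 in Fabp2-/-;Fabp6-/- pools, against 6.04 and 5.81 in WT pools and 5.90 and 5.62 in Fabp2-/- pools, a difference of 0.62 (SE 0.19). In all 3 genes Fabp2-/-;Fabp6-/- replicate 2 lay among the intact pools while the remaining Fabp6-null pools lay above all of them.

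Without that pool, chosen after the data were seen as the one that stood apart in these genes, the differences were 0.72 for Arntl, 0.72 for Npas2, 0.86 for Nfil3, -1.36 for Nr1d1, -1.31 for Dbp and -0.67 for Nr1d2, all called. Without any one of Fabp6-/- replicate 1, Fabp6-/- replicate 2, Fabp2-/-;Fabp6-/- replicate 1, WT replicate 1 or WT replicate 2, Nr1d1 alone of the list was called. Clock (0.17, SE 0.08), Per1 (-0.30, SE 0.10), Per2 (0.29, SE 0.15), Per3 (-0.17, SE 0.17), Tef (0.02, SE 0.11) and Ciart (-0.12, SE 0.07) were not called. For Arntl and Npas2 the effect also differed between the Fabp2 backgrounds (0.88 and 1.0 in Fabp6-/- over WT, 0.17 and 0.14 in Fabp2-/-;Fabp6-/- over Fabp2-/-, interactions called). Collection times, and their part in these differences, were not tested.

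**Figure D2:**
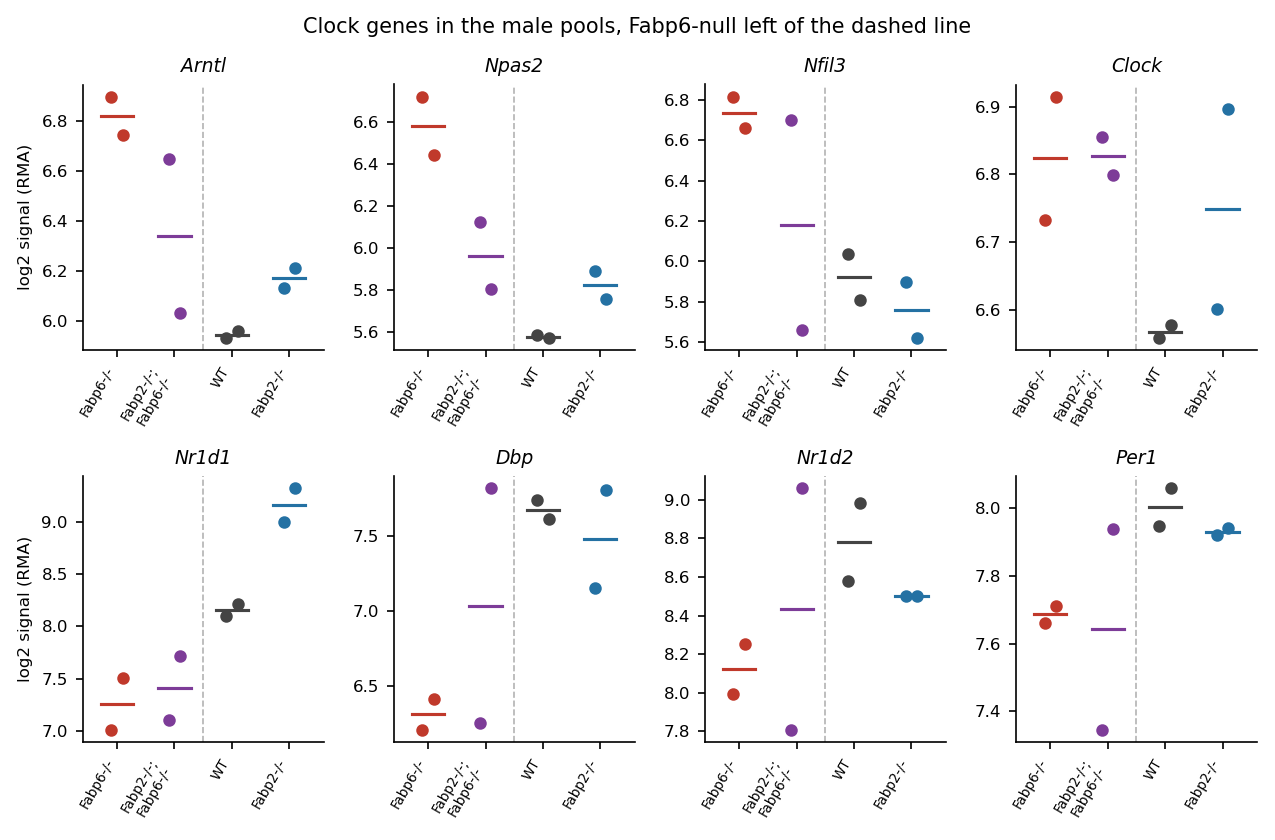
Log2 RMA signal of 8 clock genes in each male pool (points, with genotype means as bars), Fabp6-null genotypes left of the dashed line. In the Fabp2-/-;Fabp6-/- genotype the 2 pools lie far apart for Nfil3, Dbp and Nr1d2, while for Nr1d1 no Fabp6-null pool lies above 7.72 and no intact pool below 8.10.

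The promoters of Arntl and Nfil3 are shown because they held the hexamer AGGTCA, the core that a RORE shares with other nuclear receptor elements. Capitals mark it, on either strand, in RefSeq promoters of GRCm38.p6. The Arntl window is the second of 2 in the table, chr7:113207261-113207560, plus strand, and the Nfil3 window is chr13:52980990-52981289, minus strand.
Arntl: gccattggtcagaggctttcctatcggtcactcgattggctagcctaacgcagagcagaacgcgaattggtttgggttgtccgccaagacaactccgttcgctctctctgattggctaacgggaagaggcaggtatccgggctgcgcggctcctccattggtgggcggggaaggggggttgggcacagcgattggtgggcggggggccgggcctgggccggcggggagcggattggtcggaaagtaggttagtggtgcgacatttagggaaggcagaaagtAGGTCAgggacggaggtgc
Nfil3: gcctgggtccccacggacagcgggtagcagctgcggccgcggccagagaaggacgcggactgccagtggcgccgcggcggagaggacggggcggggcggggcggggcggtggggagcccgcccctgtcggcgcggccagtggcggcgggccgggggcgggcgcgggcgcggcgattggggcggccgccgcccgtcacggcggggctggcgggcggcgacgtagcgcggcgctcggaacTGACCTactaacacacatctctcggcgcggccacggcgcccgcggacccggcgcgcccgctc
Of the 6 promoters of the 5 called clock genes, 2 held the hexamer (33.3%), against 16.3% of all promoters. None of the 6 held the E-box CACGTG (7.15% of all promoters) or the D-box TTATGTAA (0.938%), in windows that reach only 250 bases upstream. Nr1d1, Dbp and Npas2 had none of the 3 motifs there.

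The Fabp6 effect was then taken apart by Fabp2 status. Fabp6-/- against WT called 120 genes (0.66%), 88 higher and 32 lower, and Fabp2-/-;Fabp6-/- against Fabp2-/- called 304 (1.67%), 159 higher and 145 lower. These contrasts share no pool. The test of the difference between them, the interaction, called 396 genes (2.18%), 201 with the more positive effect in the Fabp2-null background and 195 with the more negative one. The count of 396 became 166 without Fabp6-/- replicate 1 and 662 without Fabp2-/- replicate 2. Likewise, the count of 120 became 63 without Fabp6-/- replicate 1, 65 without Fabp6-/- replicate 2 and 189 without WT replicate 2, and that of 304 became 502 without Fabp2-/- replicate 2.

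The contrasts had 33 called genes in common, 27.5% of the smaller set and 10.9% of the larger. Of the 33, 26 changed the same way and 7 the opposite way (Gbp8, Irgm2, Psat1, Ptk6, Reg2, Saa1 and Slc13a1, with Ptk6 and Slc13a1 called on different probe sets in the 2 contrasts). All 81 genes of the overall comparison had the same sign in both backgrounds. The overall difference was the average over both backgrounds, so selection by it favoured genes with a shared sign. Of the 81, 28 passed 0.5 in both. Alone, 26 were called in both backgrounds, 15 in Fabp6-/- against WT only and 40 in Fabp2-/-;Fabp6-/- against Fabp2-/- only. For 27 of the 81 the interaction was called, 14 of them higher and 13 lower without Fabp6.

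**Figure D3:**
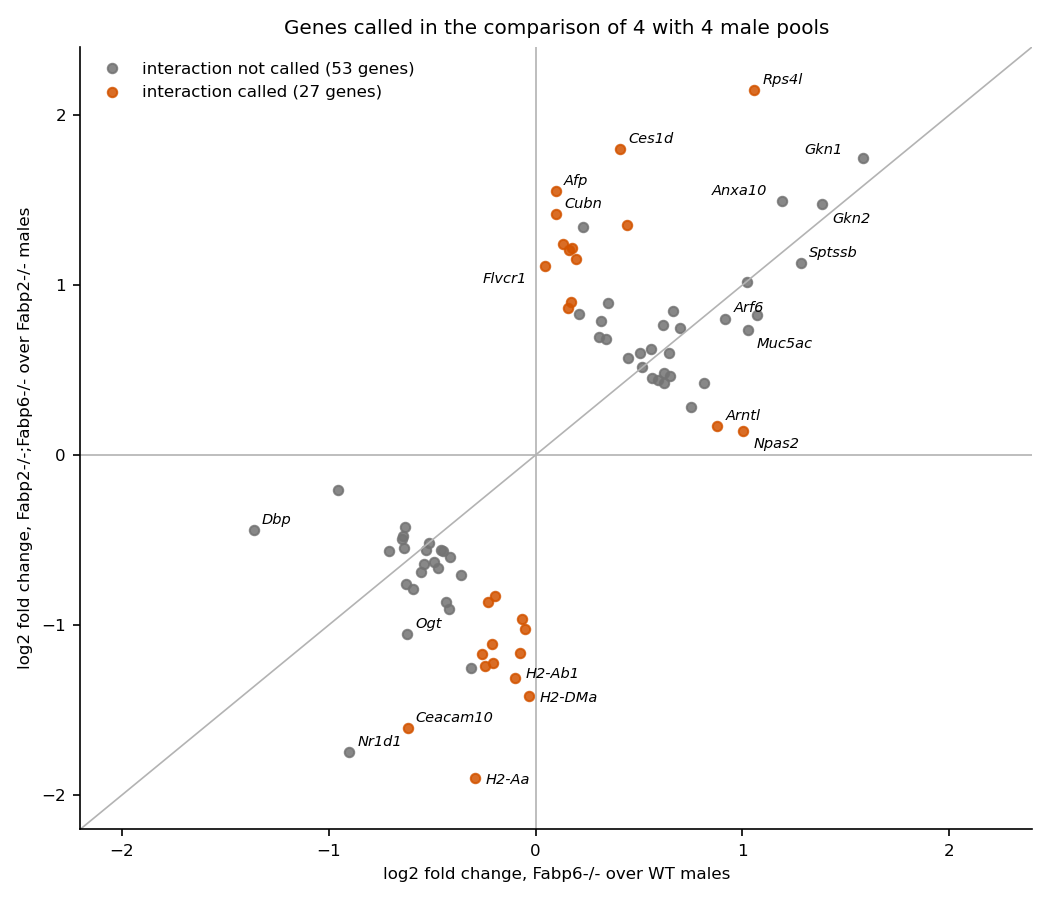
Log2 difference of Fabp2-/-;Fabp6-/- over Fabp2-/- males against that of Fabp6-/- over WT males for 80 of the 81 called genes (all but Fabp6), with the diagonal of equal effects. The 27 genes with a called interaction are orange and lie mostly near the vertical axis, where the effect is larger with the Fabp2 disruption, as for Cubn, Flvcr1 and H2-DMa.

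Antigen presentation fell without Fabp6 mainly where Fabp2 was absent too. Of 13 measured genes of MHC class II presentation, 5 fell (H2-Aa, H2-DMa, H2-Ab1, Cd74 and H2-Eb1) and 8 were not called, with a median of -0.30. H2-Aa, the class II alpha chain, had 7.87 and 7.57 in Fabp6-/- pools and 5.66 and 5.90 in Fabp2-/-;Fabp6-/- pools, against 7.89 and 8.13 in WT pools and 7.70 and 7.66 in Fabp2-/- pools. The double-disrupted pools stood alone, far below the others, and Fabp6-/- pools overlapped the intact ones. The difference was -1.90 over Fabp2-/- (adjusted p = 1.23e-06) and -0.29 over WT, with an interaction of -1.61 (adjusted p = 0.00085). The 3 further probe sets gave overall differences of -0.67 to -0.94. Cd74, the invariant chain, had 12.21 and 12.22 in Fabp6-/- pools and 10.75 and 11.06 in Fabp2-/-;Fabp6-/- pools, against 12.26 and 12.32 in WT pools and 12.14 and 11.99 in Fabp2-/- pools, and again the double-disrupted pools stood alone.

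The same held for the peptide-loading chain H2-DMa (-1.42 over Fabp2-/-, -0.03 over WT, interaction -1.39), for H2-Ab1 (-1.31, -0.10 and -1.21) and for H2-Eb1 (-0.96, -0.06 and -0.90). The overall calls rested on few pools. Without Fabp2-/-;Fabp6-/- replicate 1, Fabp2-/-;Fabp6-/- replicate 2, Fabp2-/- replicate 1 or Fabp2-/- replicate 2, 1 of the 13 genes was called. Without the Fabp2 covariate 0 were called by limma, with 4 at an unadjusted p under 0.05.

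Some genes that interferon-gamma induces fell in the same contrast. Of 19 measured genes of MHC class I presentation and the immunoproteasome, 17 were not called in the overall comparison, and the subunits Psmb8 and Psmb9 fell (-0.74, SE 0.19, and -0.71, SE 0.16), by -1.24 and -1.17 over Fabp2-/- and by -0.24 and -0.26 over WT. Of 23 measured interferon-gamma response genes, Iigp1, an immunity-related GTPase, was the only one called overall (-0.54, SE 0.18), but 10 were called lower in Fabp2-/-;Fabp6-/- against Fabp2-/- and the interaction was called for 10. The call of Iigp1 was lost with a replicate block, with cyclic loess and without the covariate. It was lost too with the probe set of highest mean signal and with the intensity trend and robust prior. The same happened in 6 of the 8 omissions of a pool, all but those of Fabp6-/- replicate 1 and WT replicate 1. Over WT, 2 genes of the list were called higher, Irgm2 (0.73) and Gbp8 (0.51). Ubd, a ubiquitin-like modifier induced by interferon-gamma, had 8.98 and 8.29 in Fabp6-/- pools and 5.27 and 5.69 in Fabp2-/-;Fabp6-/- pools, against 8.30 and 8.55 in WT pools and 7.55 and 8.39 in Fabp2-/- pools. Its double-disrupted pools were far below the 6 others, the difference over Fabp2-/- was -2.49, and the interaction was -2.70 (adjusted p = 0.0059). The transporter Tap1 (-0.98 over Fabp2-/-, 0.16 over WT) and the GTPase Igtp (-1.02 and 0.29), picked after their values were seen, had the same order of contrasts.

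A minority of immune cell markers was called. Over Fabp2-/-, 3 of 19 B and plasma cell genes were called lower (Cd79a -1.31, Pou2af1 -1.31 and Mzb1 -1.11) with a median of -0.37, 2 of 19 macrophage and dendritic cell genes (C1qa -0.54 and C1qc -0.55) with a median of -0.34, and 0 of 22 T cell genes, with a median of -0.26 and 14 genes at an unadjusted p under 0.05. Over WT, 2 B and plasma cell genes were called higher, among them Igk, the kappa light chain (0.79). In the overall comparison 0 genes of the 3 lists were called by limma, with 5, 6 and 5 at an unadjusted p under 0.05. Outside the lists, the kappa light chain gene Igkv6-14 was called lower overall (-0.66, SE 0.16), with pools that did not overlap. It differed by -0.91 over Fabp2-/- (called) and by -0.42 over WT (not called). Igkv6-20, picked after its values were seen, was lower overall too (-0.66, SE 0.18), with overlapping pools. The part of immune cells in the fall of class II genes was not tested.

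Genes of conjugation and esterases rose without Fabp6, again where Fabp2 was absent. Of 47 measured genes of glutathione metabolism and conjugation, 3 rose overall (Ces1d, Gsta3 and Ces1g), 12 rose over Fabp2-/-, and the interaction was positive and called for 14. Over WT 0 were called by limma, with 12 at an unadjusted p under 0.05. The list medians were 0.28 over Fabp2-/- and -0.08 over WT. Ces1d, a carboxylesterase that hydrolyses stored triglyceride, had 6.01 and 6.23 in Fabp6-/- pools and 7.66 and 6.92 in Fabp2-/-;Fabp6-/- pools, against 5.98 and 5.45 in WT pools and 5.06 and 5.92 in Fabp2-/- pools. Only the double-disrupted pools stood clear of the rest, with a difference of 1.80 over Fabp2-/- and 0.41 over WT (interaction 1.39, adjusted p = 0.15). Gsta3, a glutathione transferase, had 5.51 and 5.64 in Fabp6-/- pools and 6.36 and 6.26 in Fabp2-/-;Fabp6-/- pools, against 5.32 and 5.49 in WT pools and 5.32 and 5.50 in Fabp2-/- pools, an overall difference of 0.54 (SE 0.13). For Gclc, the catalytic subunit of the rate-limiting step of glutathione synthesis, the difference was 1.26 over Fabp2-/- and -0.26 over WT. Its Fabp2-/- pools were the lowest (8.25 and 8.42) and its Fabp2-/-;Fabp6-/- pools the highest (9.37 and 9.82). Between them lay the Fabp6-/- pools (8.71 and 8.76) and the WT pools (8.95 and 9.04).

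Without Fabp2-/-;Fabp6-/- replicate 1, 0 of the 47 genes were called overall by limma, with 9 at an unadjusted p under 0.05. Among 44 P450 genes, Cyp2b10 (0.69, SE 0.20) and Cyp2j6 (0.70, SE 0.21) rose in the overall comparison. They differed by 1.24 and 1.22 over Fabp2-/- and by 0.13 and 0.18 over WT, and over Fabp2-/- 3 P450 genes were called higher and 1 lower. No P450 gene was called overall by limma without the covariate (10 at an unadjusted p under 0.05), with the trend and robust prior (12), or with omission of any one of 5 pools, namely Fabp6-/- replicate 2, either Fabp2-/-;Fabp6-/- pool or either Fabp2-/- pool (5 to 10). G6pc, the glucose-6-phosphatase of glucose release, had 8.64 and 8.91 in Fabp6-/- pools and 8.87 and 8.36 in Fabp2-/-;Fabp6-/- pools, against 8.37 and 8.29 in WT pools and 7.30 and 7.22 in Fabp2-/- pools. The Fabp2-/- pools were the ones that stood apart, so the difference was 1.35 over Fabp2-/- and 0.44 over WT (interaction 0.91).

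Cubn, the ileal receptor for vitamin B12 bound to intrinsic factor, had 9.28 and 9.63 in Fabp6-/- pools and 10.29 and 10.35 in Fabp2-/-;Fabp6-/- pools, against 9.42 and 9.30 in WT pools and 8.61 and 9.18 in Fabp2-/- pools. It was higher by 1.42 over Fabp2-/- and by 0.10 over WT (interaction 1.32, adjusted p = 0.024), and a second probe set rose with it. With all 8 pools the difference was 0.76, and it ran from 0.51 to 0.96 when each pool was left out in turn. The call with all 8 pools was lost without the Fabp2 covariate and with the intensity trend and robust prior. Of the 10 measured ileal enterocyte markers, Cubn was the only one called higher with all 8 pools and Fabp6 the only one called lower. Over Fabp2-/- 1 of the 10 was called higher and 2 lower, and over WT 1 higher and 1 lower. Flvcr1, a haem exporter picked after its values were seen, had 8.71 and 8.82 in Fabp6-/- pools and 9.0 and 9.17 in Fabp2-/-;Fabp6-/- pools, against 8.71 and 8.72 in WT pools and 7.96 and 7.99 in Fabp2-/- pools. Its Fabp2-/- pools lay below all others, and its difference of 1.11 over Fabp2-/- had an adjusted p of 6.83e-06, and its difference over WT was 0.05.

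Of 16 measured hepatocyte genes, Alb alone was called in the overall comparison, with a list median of 0.17, and 3 were called higher over Fabp2-/-. Alb, serum albumin, had 6.62 and 6.02 in Fabp6-/- pools and 8.11 and 6.96 in Fabp2-/-;Fabp6-/- pools, against 5.99 and 6.19 in WT pools and 6.05 and 6.34 in Fabp2-/- pools, and the overall difference of 0.78 (SE 0.27, adjusted p = 0.1997 by limma) was just inside the threshold. Fabp2-/-;Fabp6-/- replicate 1 was the highest. The call was lost with a replicate block, with cyclic loess and with the probe set of highest mean signal. It was lost too without the covariate and with the intensity trend and robust prior. The same happened in 6 of the 8 omissions of a pool, all but those of Fabp6-/- replicate 2 and WT replicate 2. Afp, alpha-fetoprotein, and Serpina1c, an antitrypsin, differed by 1.55 and 1.21 over Fabp2-/- and by 0.10 and 0.16 over WT, and both, called in the overall comparison (0.83, SE 0.27, and 0.68, SE 0.19) but not on the hepatocyte list, were picked after their values were seen. The 4 other probe sets of Afp gave -0.14 to 0.34, none of them called. The mean linear signal of the list, as log2, was 7.37 to 7.66 in Fabp6-null pools and 7.15 to 7.36 in intact pools.

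Other groups had opposite or unequal effects in the 2 backgrounds. Of 31 nuclear RNAs and splicing-related genes, 12 rose and 1 fell over WT, while over Fabp2-/- 0 rose and 1 fell, with medians of 0.38 and -0.01 and a called negative interaction for 10. Neat1, the long RNA that builds paraspeckles, had 11.12 and 11.30 in Fabp6-/- pools and 9.79 and 10.11 in Fabp2-/-;Fabp6-/- pools, against 10.06 and 10.16 in WT pools and 10.04 and 10.18 in Fabp2-/- pools. The Fabp6-/- pools alone were high, by 1.10 over WT. Prpf4b, a splicing kinase, and Taf15, an RNA-binding protein of the FET family, differed by 0.88 and 0.92 over WT and by 0.09 and -0.14 over Fabp2-/-. These 3 genes were picked after their values were seen. With all 8 pools Sfpq and Gpatch8 rose and Ogt fell, of which more below. The list median was then 0.24, against -0.01 over all genes. By limma 19 of the 31 had an unadjusted p under 0.05, against 2918 of all 18195.

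Reg2 and Saa1 gave the largest interactions. Reg2, a secreted C-type lectin, had 11.58 and 10.49 in Fabp6-/- pools and 8.96 and 7.68 in Fabp2-/-;Fabp6-/- pools, against 9.17 and 9.09 in WT pools and 10.30 and 10.53 in Fabp2-/- pools. It was higher by 1.90 over WT and lower over Fabp2-/- (-2.10), with an interaction of -4.0 (adjusted p = 0.0050). Saa1, the acute-phase protein serum amyloid A1, had 7.74 and 7.80 in Fabp6-/- pools and 5.04 and 4.96 in Fabp2-/-;Fabp6-/- pools, against 5.06 and 6.32 in WT pools and 6.71 and 6.75 in Fabp2-/- pools. Each single disruption thus had higher signals than WT or the double one, and the overall differences were -0.10 (SE 0.66) for Reg2 and 0.18 (SE 0.61) for Saa1. Of 18 Reg and acute-phase genes, 4 were called higher over WT and 5 lower over Fabp2-/-.

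Psat1, of serine synthesis, followed the same pattern (0.58 over WT, -0.63 over Fabp2-/-), and of 29 genes of serine synthesis and amino acid response 3 were called higher over WT and 3 lower over Fabp2-/-, with a called negative interaction for 8. In the overall comparison 0 of the 29 were called by limma, with 6 at an unadjusted p under 0.05.

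Pancreatic transcripts varied between pools. Ctrc, chymotrypsin C, had 7.33 and 7.18 in Fabp6-/- pools and 7.45 and 6.93 in Fabp2-/-;Fabp6-/- pools, against 7.10 and 6.74 in WT pools and 9.95 and 10.84 in Fabp2-/- pools. Both Fabp2-/- pools were far above the 6 others (interaction -3.54, adjusted p = 0.0026). The other enzymes were not alike, since Cpa1, carboxypeptidase A1, had 12.55 and 12.14 in Fabp6-/- pools and 12.55 and 11.63 in Fabp2-/-;Fabp6-/- pools, against 12.07 and 11.34 in WT pools and 11.97 and 12.69 in Fabp2-/- pools. Of 22 measured acinar genes 0 were called overall by limma, with 2 at an unadjusted p under 0.05, and with medians of 0.65 over WT and -0.33 over Fabp2-/-. The mean linear signal of the list, as log2, was 11.12 to 11.90 in Fabp6-null pools and 10.85 to 12.08 in intact pools.

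**Figure D4:**
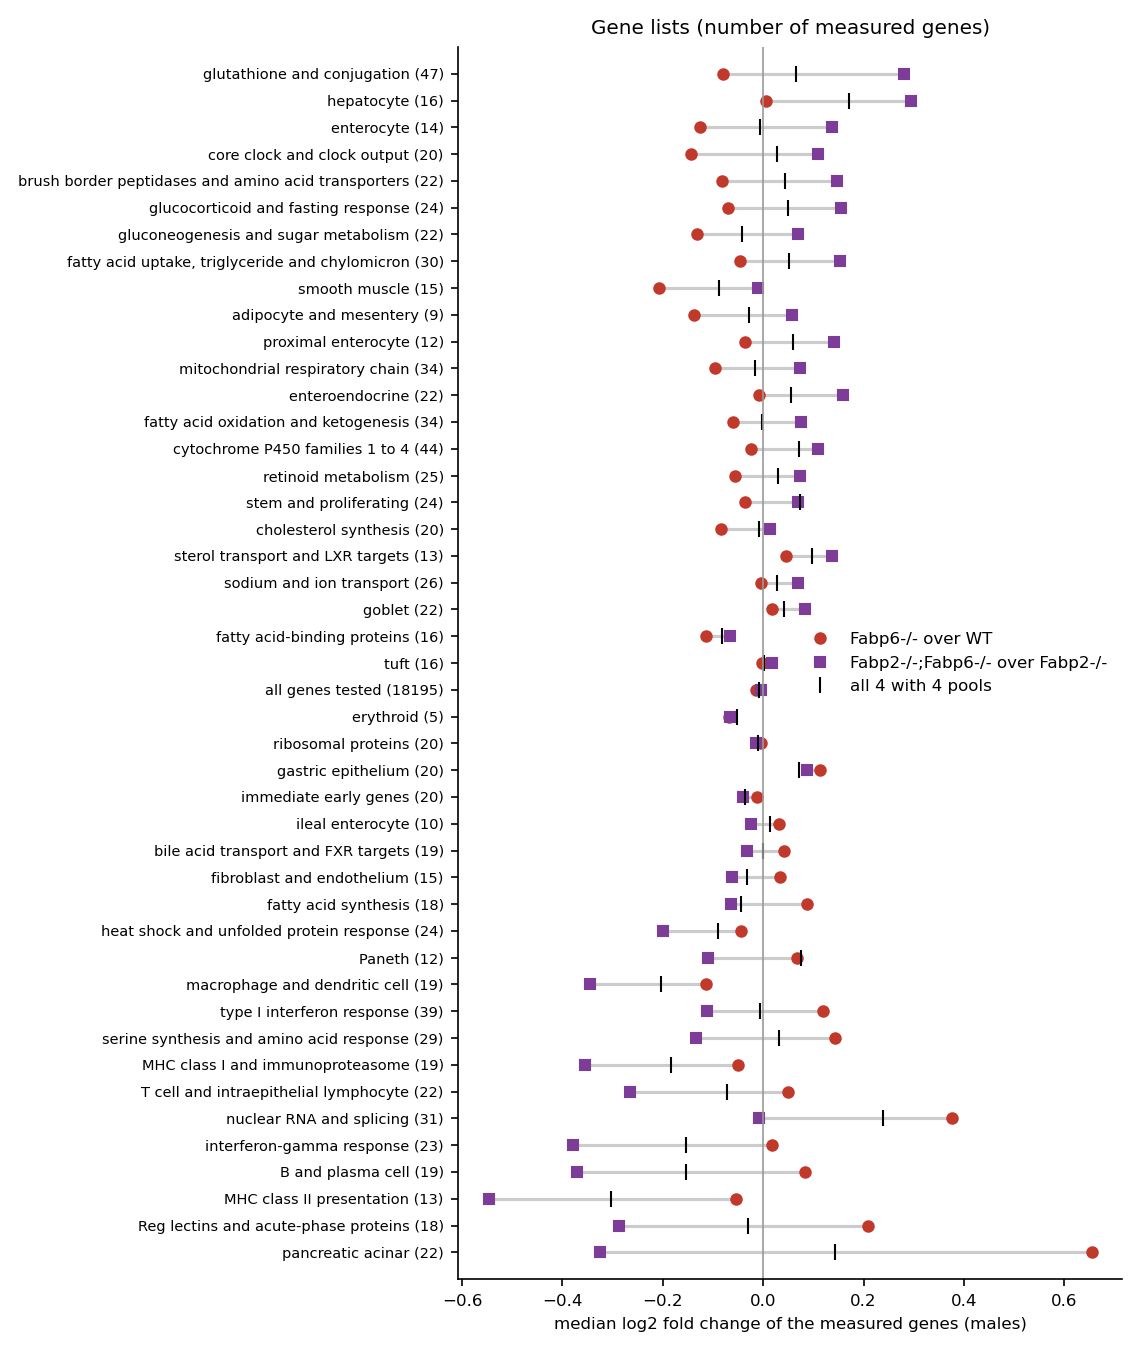
Median log2 difference of the measured genes of each of 44 lists and of all genes, for Fabp6-/- over WT males (circles), Fabp2-/-;Fabp6-/- over Fabp2-/- males (squares) and all 4 with 4 pools (ticks). MHC class II presentation, with -0.05 and -0.55, and pancreatic acinar genes, with 0.65 and -0.33, lie far apart between the backgrounds, while the gastric list has about the same median in both (0.11 and 0.09).

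Several calls belonged to 1 probe set of a gene and not to the gene's other probe sets. Of the 81 genes, 53 had another probe set, in 15 of them another probe set had the opposite sign, and in 8 another one was called too (Gkn1, Ces1d, Cubn, Cyp2b10, H2-Ab1, H2-Aa, Ceacam10 and, in the opposite direction, Ctse). Ogt, the transferase that adds O-GlcNAc to proteins, had 7.53 and 7.62 in Fabp6-/- pools and 6.89 and 7.26 in Fabp2-/-;Fabp6-/- pools, against 8.06 and 8.33 in WT pools and 8.13 and 8.13 in Fabp2-/- pools. The pools did not overlap and the difference was -0.84 (SE 0.11, adjusted p = 0.0081), while 4 other probe sets of Ogt gave 0.08 to 0.25.

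Tmed7, a cargo receptor of the early secretory pathway, had 6.70 and 6.75 in Fabp6-/- pools and 6.88 and 6.97 in Fabp2-/-;Fabp6-/- pools, against 5.98 and 6.07 in WT pools and 6.09 and 6.26 in Fabp2-/- pools. These pools did not overlap either, with a difference of 0.72 (SE 0.06, adjusted p = 0.00078), yet its 4 other probe sets gave -0.25 to 0.05. Arf6, a small GTPase of endocytic recycling, had 6.38 and 6.57 in Fabp6-/- pools and 6.06 and 6.20 in Fabp2-/-;Fabp6-/- pools, against 5.62 and 5.50 in WT pools and 5.43 and 5.22 in Fabp2-/- pools, a difference of 0.86 (SE 0.07) where 3 other probe sets gave 0.03 to 0.31.

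Mapre2, a protein of microtubule ends, gave 0.95 against -0.07 to 0.21 on 4 others, and Sfpq, a paraspeckle protein, 0.55 against -0.16 to 0.12 on 5 others. Zfpm1, a cofactor of GATA factors, differed by -0.69 on a probe set with tight pools and by -0.09 on its second one. For Mocs1, of molybdenum cofactor synthesis, the values were -0.62 and -0.14, and for Psme3, a proteasome activator, -0.59 against -0.17 and -0.13. Which transcripts these probe sets read was not tested. For Gkn1, Cyp2b10 and H2-Aa the other probe sets had the same sign and like sizes.

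**Figure D5:**
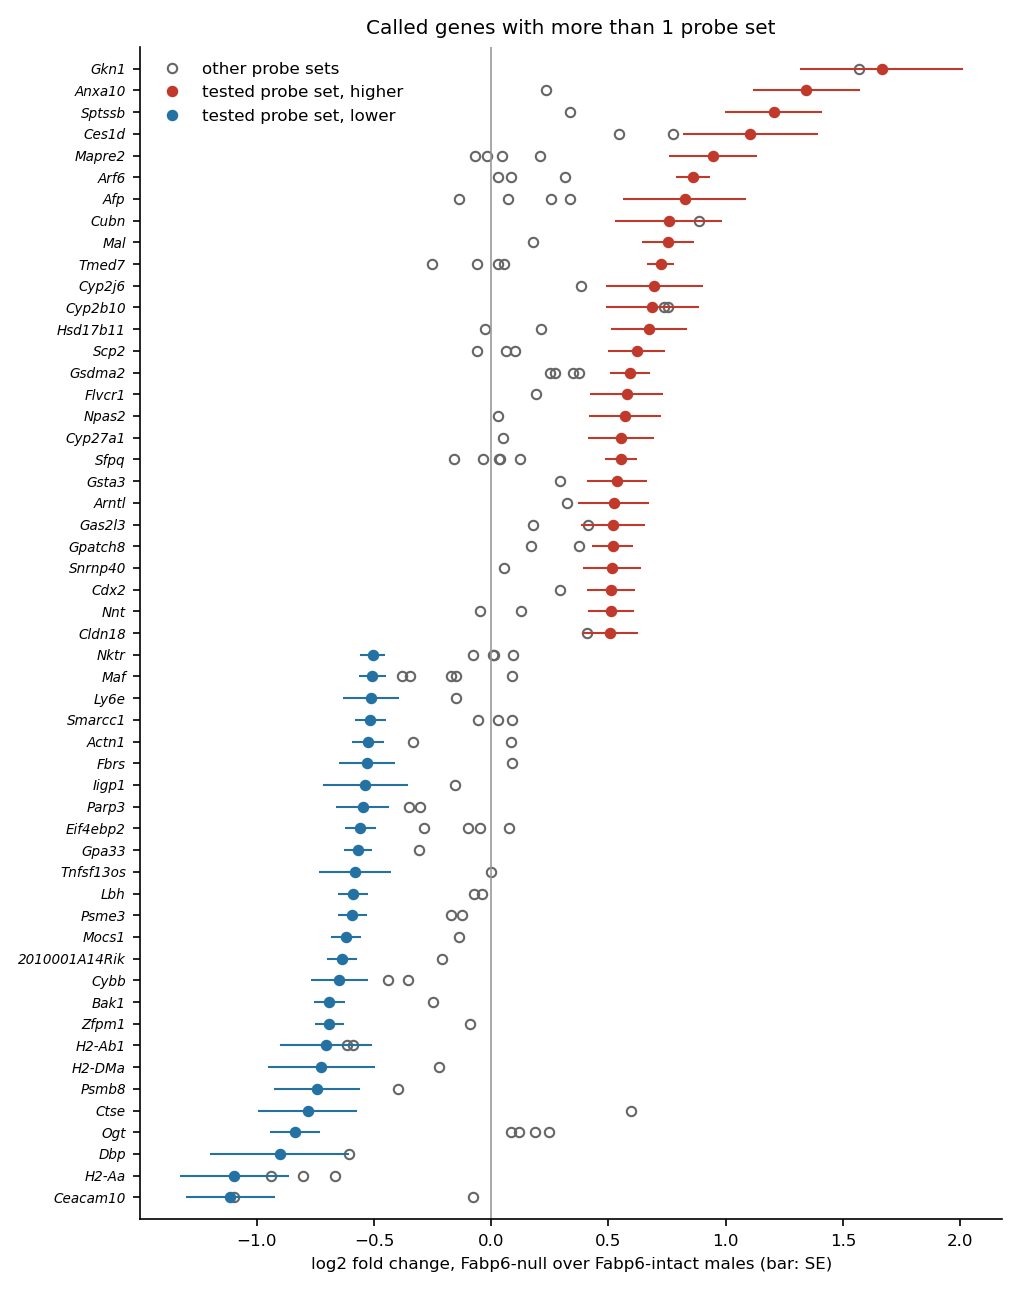
Log2 difference of Fabp6-null over Fabp6-intact males for the 53 called genes with more than 1 probe set, with the tested probe set filled (bar, SE) and the others open. For Ogt, Tmed7, Sfpq and Scp2 the open points sit around 0, while for Gkn1, Cyp2b10 and H2-Aa they sit near the tested one.

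In female pools the same comparison called 41 genes (0.225%), 17 higher and 24 lower. One library went against its label there, since Fabp6 was 4.80 and 9.21 in the 2 pools labelled Fabp6-/-, and 4.91 and 5.04 in Fabp2-/-;Fabp6-/- pools, against 10.50 and 11.13 in WT pools and 10.90 and 10.84 in Fabp2-/- pools. Without that library, left out after the data were seen, 70 genes (0.385%) were called in females. Of the 81 genes called in males, 72 had the same sign in females, 19 were called the same way and 0 the other way, and without that library 73 and 26.

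The gastric rise was called in females for Gkn1 (1.12), Gkn2 (1.08), Anxa10 (1.07) and Tff1 (0.78), and Sptssb (0.93), Arf6 (0.65), Tmed7 (0.79), Bak1 (-0.64) and Ceacam10 (-1.08) were called there as well. Rps4l was not (0.89), but was without the library named above (1.48). Female differences of the clock genes were -0.15 for Arntl, -0.04 for Npas2, -0.09 for Nfil3, -0.49 for Nr1d1 and 0.18 for Dbp, none of them called. Without that library they were -0.33, -0.20, -0.22, -0.49 and 0.49, again not called, and Per2 was called (0.51, adjusted p = 0.034). The test of the difference between the sexes called 0 genes (0%) by limma, with 1020 tests at an unadjusted p under 0.05 and a lowest adjusted p of 0.38, and it called 1 gene without WT female replicate 2 or without Fabp2-/- female replicate 1. A gene called in males and not in females was thus not shown to differ between them.

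The neighbours of the disrupted loci were not among the called genes. Of the 400 genes annotated nearest to Fabp6, 145 were measured and 0 were called by limma, with 21 at an unadjusted p under 0.05 and differences from -0.31 to 0.46. Of 148 measured near Fabp2, 0 were called, with 21 at an unadjusted p under 0.05. The lowest adjusted p near Fabp6 was 0.0040, in a gene whose difference stayed under 0.5. At an unadjusted p under 0.05, the comparison as a whole had 3062 of 22006 tests.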

How the data were processed

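Total RNA of whole small intestine was measured on 430A and 430B arrays in the 8 male pools described above, and the 8 female pools were fitted only beside them. Log2 signals were deposited, made by the authors from the scans by background correction, quantile normalization and robust multichip average (RMA, version not given in the sources used here), each chip on its own, so that changes are relative to the distribution of all signals. The deposited series matrix held the same log2 values in every cell.

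By the platform annotation, 1 Entrez gene was named for 20393 of 22690 probe sets on 430A and for 14674 of 22575 on 430B. Probe sets naming several genes or none were left out. Every gene was represented on a chip by its most variable probe set (interquartile range across all 16 arrays), giving 22006 tests of 18195 genes. The 3811 genes on both chips were counted once, by a called test first and the lower p next. The male pools of each chip were fitted with limma 3.58.1 in R 4.3.3 on Fabp6 and Fabp2 status (5 residual degrees of freedom). The contrasts within a Fabp2 background and their interaction used genotype means (4 residual degrees of freedom). Tests were two-sided and moderated by empirical Bayes, with Benjamini-Hochberg adjustment per chip, and genes were called at an adjusted p under 0.2 and an absolute log2 difference over 0.5, the study's thresholds. The scripts were tested on simulated data.

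The genes named were the 12 largest rises and 12 largest falls with pools that did not overlap, fixed FABP, bile acid and clock genes, up to 4 called genes of each of 44 lists and up to 4 of each interaction. Clone-named genes (3 of the 81) were counted only. Further genes named beside these, among them H2-Eb1, Cldn18, Mapre2, Gclc, Cpa1, Psat1 and the immune cell markers, were picked with their values already seen. Members and lists were also chosen with earlier results of these data known. Same-numbered pools did not deviate together (correlations of -0.173 to 0.182), so replicate numbers were not used to pair them. Alternatives were other probe set choices, filters, covariates, arrays in the fit, priors, thresholds and normalization, a replicate block and omission of each pool. Raw array files were not used here.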

Additional observations from a re-analysis of the deposited data

Results flagged for a closer look

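The highest or lowest of 4 pools stood apart from the other 3 by Dixon's test at 95% in 10 of 140 groups tested (70 named genes, Fabp6-null and Fabp6-intact pools), and chance gives about 1 in 20. Fabp2-/-;Fabp6-/- replicate 2 was such a pool for Dbp (highest, 7.82), Nfil3 (lowest, 5.66), Ciart (highest, 7.45) and Slc51a (highest, 11.02), so 3 of its 4 cases were clock genes. Fabp2-/-;Fabp6-/- replicate 1 was the highest Fabp6-null pool for Nr0b2 (6.31). Among the intact pools, Fabp2-/- replicate 2 was highest for Nr0b2 (6.13) and Clock (6.90), Fabp2-/- replicate 1 for Cybb (7.85) and WT replicate 2 for Nr1d2 (8.98), and WT replicate 1 was lowest for Scp2 (5.44).

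The Fabp6 effect differed between the Fabp2 backgrounds by limma's interaction test for 396 genes, and 22 named genes beside the clone-named 1810065E05Rik (-1.02) were among them. The difference, given as the effect in the Fabp2-null minus that in the Fabp2-intact background, was most negative for Reg2 (-4.0), Saa1 (-3.81), Ctrc (-3.54) and Ubd (-2.70). Antigen presentation genes followed, with H2-Aa at -1.61, H2-DMa at -1.39, H2-Ab1 at -1.21, Cd74 at -1.09, Psmb8 at -1.0 and Psmb9 at -0.91. The GTPase Iigp1 was at -0.97. Ceacam10 (-0.99) and the clock genes Npas2 (-0.86) and Arntl (-0.71) were negative too. It was positive for Ces1d (1.39), Cubn (1.32), Cyp2b10 (1.10), Rps4l (1.09), Cyp2j6 (1.04), G6pc (0.91), Gsta3 (0.73) and Ces1g (0.71).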

How the results depend on the processing

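The count of 81 called genes was 49 with an intensity trend and robust prior, all of them among the 81, and 39 at an FDR under 0.05. It ran from 51 (without Fabp2-/-;Fabp6-/- replicate 1) to 97 (without WT replicate 2) when each pool was left out, and from 55 to 95 under the other alternatives, among them 78 with a replicate block, 56 without the Fabp2 covariate and 55 with the probe set of highest mean signal. Omission of a pool gave 166 to 662 interactions with Fabp2, 63 to 189 genes for Fabp6-/- against WT, 259 to 502 for Fabp2-/-;Fabp6-/- against Fabp2-/-, and 0 to 1 for the interaction with sex. Each such fit left 1 genotype with 1 pool, whose spread was taken from the other genotypes. The replicate block gave 405, 117, 317 and 0 genes for these 4, which paired nothing, since same-numbered pools did not deviate together. Without Fabp6-/- female replicate 2, 70 genes were called in females. The log2 difference of Fabp6 ran from -6.29 to -6.18 without each pool.

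Of 69 named genes other than Fabp6, 3 changed sign with the probe set of highest mean signal, Tmed7 (-0.0605), Ogt (0.25) and Sfpq (-0.035), and 11 others lost their call. The cause was not tested. The prior with a trend lost 21 calls, omission of the covariate 16 and omission of 1 pool between 6 and 19. The within-background alternatives and the omission of the female library were chosen after seeing the data. With 2 pools a genotype, changes confined to 1 genotype rest on 2 values.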
